A study of Sus scrofa with 12 samples.

Results

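Testes of Landrace (LC) boars aged 120 days were compared with testes of LC boars aged 30 days. The members were taken by the breed label alone, and they are 6 of the 12 libraries of the study. La1, La2 and La3 come from 30-day-old LC boars, and Lb1, Lb2 and Lb3 come from 120-day-old LC boars. The other 6 libraries, Ha1 to Ha3 and Hb1 to Hb3, come from Hezuo (HZ) boars of the same ages and serve here to test whether a difference by age differed between breeds. The study compared HZ, a small early maturing pig of the plateau, with LC to follow RNAs through testis development. All boars were reared under the same conditions and castrated to obtain the testes, no group carries a treatment or an engineered allele, and each library was made from total RNA after removal of ribosomal RNA, with strand kept. According to its methods, boars within a breed shared their genetic background, and litter or testis side is not stated.

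In the seminiferous tubules, spermatogonia divide, enter meiosis as spermatocytes and are remodelled as spermatids into sperm with an acrosome, protamine-packed chromatin and a tail. Sertoli cells nourish these germ cells inside the tubule, peritubular myoid cells wrap it, and Leydig cells between the tubules convert cholesterol to androgens. Before puberty Sertoli cells are immature and secrete anti-Mullerian hormone, and the first complete wave of spermatogenesis follows as the boar matures.

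Estimated counts of mRNAs came to 22233155, 18523274 and 23563949 in La1, La2 and La3, and to 23253496, 22951618 and 18998959 in Lb1, Lb2 and Lb3. Between 17994 and 18126 mRNAs had at least 1 count in the La libraries, and between 18451 and 18476 in the Lb libraries. Levels are given as CPM, counts relative to library size after TMM scaling over the 12 libraries, always in the order of library 1, 2 and 3 of a group. A count of 0 allows 3 counts per library, which is 0.119 to 0.151 CPM in the La libraries and 0.139 to 0.154 CPM in the Lb libraries, and such limits cover counting error only. A gene was called when its adjusted p in edgeR was below 0.05 and its log2 fold change was over 1 in size, and ± marks the SE of a log2 fold change between 3 and 3 libraries. Other settings ended or made the call by age in LC of some tested genes. Where the difference by age of such a gene is described below, its log2 fold change in these settings is given, or their range. For genes named only for their interaction it is not given. Across the tested mRNAs, which are not independent replicates, Pearson's r of log2(CPM + 1) was 0.987 to 0.990 between La libraries and 0.977 to 0.981 between Lb libraries. Among the Lb libraries, Lb3 was the lowest in several genes of Leydig cells, and of the HZ libraries Hb1 stood apart from Hb2 and Hb3 in the same genes.

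Markers of each main testis cell type were present in the 6 LC libraries. DDX4 of germ cells lay between 11.9 and 416 CPM, SOX9 of Sertoli cells between 74.2 and 174 CPM, and CYP17A1 of Leydig cells between 1658 and 6610.3 CPM. Of the 10 markers of epididymis and adrenal cortex, 8 were in the table, 4 were tested, 2 were lower in Lb (MRAP and DEFB1) and 2 were not called (ADAM28 and CYP21A2), with a median log2 fold change of -1.43. This median was -0.91 without Lb1 and -2.13 without Lb2. DEFB1 was called at -2.15 and missed its call in 9 other settings, at -2.34 to -1.55. ADAM28 passed the threshold at -1.90 without Lb3. PAX2, LCN5 and CRISP1 of the epididymis and MC2R, the corticotropin receptor of the adrenal cortex, were too low to be tested, at 0.648 CPM or less in each library. This list summed to 55.1, 43.7 and 45.5 CPM in La and 10.6, 24.9 and 18.4 CPM in Lb, and MRAP, a melanocortin receptor accessory protein, was its most abundant gene.

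Among 16637 tested of 21674 mRNAs, 7926 (47.6%) were called between LC testes of 120 and 30 days. Of the tested mRNAs, 4574 (27.5%) were higher and 3352 (20.1%) lower in Lb, and the median log2 fold change was 0.01. The groups did not overlap for 7864 of the called mRNAs, beside 12626 (75.9%) of all tested mRNAs. Increases reached further than decreases, since 1534 mRNAs had a log2 fold change over 4 and 130 had one under -4. No count in any La library was recorded for 276 of the upregulated mRNAs, whereas 26 of the downregulated mRNAs had none in any Lb library. With no library over 3 counts, La was at the floor for 676 of the upregulated mRNAs and Lb for 94 of the downregulated ones. The log2 fold changes of these mRNAs are fitted values and not exact. The upregulated mRNAs together held 8.63% ± 0.0649 of mRNA CPM in La and 40.0% ± 1.02 in Lb (SD, n = 3), and the downregulated ones 24.8% ± 0.570 and 7.43% ± 0.532. These mRNAs were called in the same libraries, so the direction of the shares followed from the calls and only their size is described. The choice of scale moved the median log2 fold change of all mRNAs from 0.01 to -0.16 with library totals, to -0.16 with limma on log2(FPKM + 1) and to -0.27 with limma on log2(FPKM + 0.1). The share of calls that were higher in Lb went from 57.7% to 46.1% in the last of these, and the medians of the 28 gene lists kept their signs under each scale. In whole testis, fewer cells of a type, less RNA per cell and a larger share of RNA from other cells cannot be told apart. The histology of the study described more spermatogenic cells and more Sertoli cells at the older age. Of the 438 genes on the lists, 416 were in the table. Counts of called members in each list stand beside the 27.5% higher and 20.1% lower of all tested mRNAs.

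**Figure D1:**
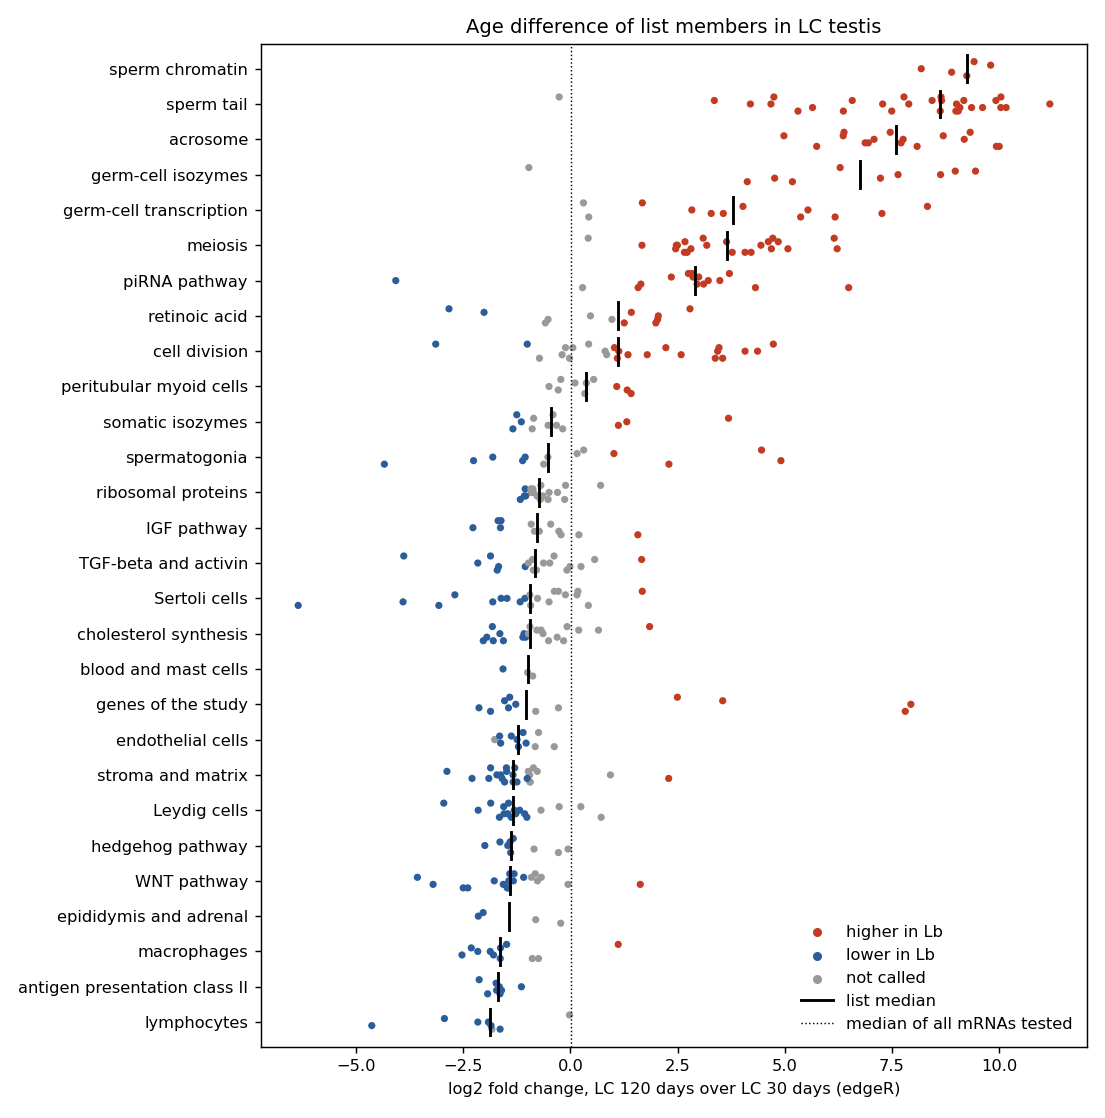
Log2 fold change (horizontal axis, edgeR, LC 120 days over LC 30 days) of each tested member of the 28 gene lists (vertical axis), where each point is 1 gene, black bars are list medians, and genes without counts in La are drawn at their fitted value. Medians ran from -1.89 for lymphocyte markers to 9.25 for sperm chromatin, beside 0.01 for all tested mRNAs (dotted line).

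Genes of spermatogonia moved in both directions. Of the 16 on the list, 14 were in the table and 13 were tested, and 4 were higher, 5 lower and 4 not called, with a median log2 fold change of -0.53 beside 0.01 over all tested mRNAs. Among all tested mRNAs, 27.5% were higher and 20.1% lower. The number of lower ones was 3 without La1 and 2 with limma on log2(FPKM + 1). RET (chr14:61305818-61361416), the receptor through which GDNF signals in spermatogonial stem cells, measured 34.9, 34.9 and 40.0 CPM in La and 7.82, 6.45 and 8.37 CPM in Lb. RET was lower in every Lb library than in any La library (log2 fold change -2.26 ± 0.163, adjusted p = 5.59e-06). GFRA1 (chr14:126273558-126499957), the GDNF co-receptor, measured 25.1, 29.4 and 27.9 CPM in La and 6.66, 11.3 and 5.24 CPM in Lb. GFRA1 fell, with no overlap between the groups (log2 fold change -1.81 ± 0.268, adjusted p = 0.000389). NANOS2 (chr6:52218889-52219834), an RNA-binding protein of undifferentiated spermatogonia, measured 0.636, 1.06 and 0.636 CPM in La and 0.0463, 0 and 0.0513 CPM in Lb. NANOS2 was downregulated in Lb, where its highest value lay under the lowest of La (ratio 23.6, counting interval 6.22 to 200.2, adjusted p = 0.000703). NANOS2 missed the threshold at -0.71 with limma on log2(FPKM + 1). STRA8 (chr18:14055258-14080399), the gene that retinoic acid switches on before meiosis, measured 0.424, 0 and 0.119 CPM in La and 3.65, 6.87 and 2.05 CPM in Lb. STRA8 was higher in every Lb library than in any La library (log2 fold change 4.46 ± 0.822, adjusted p = 0.00136). Without La1 STRA8 stood at 5.89. ZBTB16, KIT, UCHL1 and SOHLH1 were not called. KIT (chr8:41402334-41492306), a receptor of differentiating spermatogonia, measured 39.2, 35.2 and 46.7 CPM in La and 54.2, 52.2 and 42.04 CPM in Lb. KIT did not pass the test, and its groups overlapped (log2 fold change 0.31 ± 0.150, adjusted p = 0.0971). DDX4 (chr16:34879701-34983701), an RNA helicase of all germ cells and the most abundant gene of the list, measured 11.9, 12.2 and 15.3 CPM in La and 416, 367 and 390.2 CPM in Lb. DDX4 rose, with no overlap between the groups (log2 fold change 4.91 ± 0.146, adjusted p = 6.78e-08).

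Genes of meiosis were upregulated nearly throughout. Of 26 listed, 23 were in the table and tested, and 22 were higher, 0 lower and 1 (MND1) not called, with a median log2 fold change of 3.64. SYCP1 (chr4:105592354-105730413), the transverse filament of the synaptonemal complex, measured 1.27, 0.955 and 0.835 CPM in La and 24.1, 18.5 and 23.6 CPM in Lb. SYCP1 was upregulated in Lb, where its lowest value exceeded the highest of La (log2 fold change 4.44 ± 0.246, adjusted p = 1.22e-06). REC8 (chr7:75118743-75127759), the meiotic cohesin that holds sister chromatids, measured 1.44, 1.16 and 2.34 CPM in La and 98.0, 149 and 107 CPM in Lb. REC8 increased in all 3 Lb libraries, without overlap (log2 fold change 6.15 ± 0.291, adjusted p = 5.15e-07). STAG3 (chr3:8175908-8211898), a cohesin subunit and the most abundant gene of the list, measured 107, 103 and 107 CPM in La and 1349, 1424 and 1157 CPM in Lb. STAG3 was higher in every Lb library than in any La library (log2 fold change 3.64 ± 0.115, adjusted p = 7.81e-08). DMC1 (chr5:9431236-9470333), the recombinase of meiotic strand exchange, measured 1.61, 1.46 and 1.35 CPM in La and 28.0, 22.2 and 23.7 CPM in Lb. DMC1 rose, with no overlap between the groups (log2 fold change 4.07 ± 0.199, adjusted p = 6.11e-07). MND1 (chr8:75680604-75755811), a partner of DMC1, overlapped between the groups (log2 fold change 0.41 ± 0.293, adjusted p = 0.234).

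In the piRNA pathway, which silences transposons in the germ line, 17 of 17 genes were in the table and 16 were tested. Of these, 14 were higher, 1 (PIWIL4) lower and 1 (TDRD1) not called, with a median log2 fold change of 2.91. PIWIL1 (chr14:24729346-24760056), the PIWI protein of pachytene spermatocytes, measured 3.31, 3.47 and 3.62 CPM in La and 309, 321 and 298 CPM in Lb. PIWIL1 was upregulated in Lb, where its lowest value exceeded the highest of La (log2 fold change 6.49 ± 0.120, adjusted p = 2.81e-08). PIWIL4 (chr9:26679960-26751856), the PIWI protein of prospermatogonia, measured 25.1, 23.8 and 16.2 CPM in La and 1.295, 2.02 and 0.462 CPM in Lb. PIWIL4 decreased in all 3 Lb libraries, without overlap (log2 fold change -4.08 ± 0.435, adjusted p = 5.82e-05). PIWIL1 and PIWIL4 thus moved in opposite directions. TDRD7 (chr1:239285628-239368558), a tudor protein of germ granules and the most abundant gene of the list, measured 60.4, 67.2 and 69.6 CPM in La and 525, 530.0 and 498 CPM in Lb. TDRD7 increased in all 3 Lb libraries, without overlap (log2 fold change 2.99 ± 0.105, adjusted p = 1.14e-07). MOV10L1 (chr5:509868-567429), a helicase of piRNA formation, was not tested and had 0, 0 and 0 CPM in La and 0, 31.9 and 24.1 CPM in Lb, so that Lb1 stood with La. It was tested and called higher in 6 other settings.

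Transcription regulators of meiotic and later germ cells rose as well, with 10 of 12 tested members higher, 0 lower and 2 (TBPL1 and TAF7L) not called, of 12 listed and 12 in the table, and a median log2 fold change of 3.80. RFX2 (chr2:72949859-73051184), a factor of spermatid genes and the most abundant gene of the list, measured 5.81, 7.18 and 4.77 CPM in La and 470.1, 481 and 317 CPM in Lb. RFX2 was higher in every Lb library than in any La library (log2 fold change 6.18 ± 0.233, adjusted p = 1.53e-07). CREM (chr10:57829523-57895610), the CREB family activator of spermatid genes, measured 10.8, 11.8 and 13.2 CPM in La and 111, 117 and 117 CPM in Lb. CREM rose, with no overlap between the groups (log2 fold change 3.28 ± 0.126, adjusted p = 1.67e-07). TBPL1 (chr1:29899956-29936773), a relative of the TATA-binding protein, overlapped between the groups (log2 fold change 0.43 ± 0.223, adjusted p = 0.119).

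Genes of cell division were mixed. All 24 were tested, 14 were higher, 2 (CCND2 and MCM2) lower and 8 not called, with a median log2 fold change of 1.11. PLK1 (chr3:22537814-22550901), a kinase of mitotic and meiotic entry, measured 14.8, 13.6 and 13.6 CPM in La and 313, 288 and 258 CPM in Lb. PLK1 was upregulated in Lb, where its lowest value exceeded the highest of La (log2 fold change 4.37 ± 0.121, adjusted p = 5.10e-08). CCNA1 (chr11:12396149-12405357), the cyclin A of germ cells, measured 3.56, 3.22 and 3.46 CPM in La and 119, 74.5 and 77.1 CPM in Lb. CCNA1 increased in all 3 Lb libraries, without overlap (log2 fold change 4.73 ± 0.223, adjusted p = 4.99e-07). CCND2 (chr5:66092483-66114575), a cyclin of the step from rest into DNA synthesis, measured 151, 137 and 136 CPM in La and 20.8, 14.8 and 11.9 CPM in Lb. CCND2 was lower in every Lb library than in any La library (log2 fold change -3.14 ± 0.198, adjusted p = 2.54e-06). MCM7 (chr3:8005890-8014047), a helicase subunit of replication and the most abundant gene of the list, measured 329, 279 and 278 CPM in La and 380.4, 388 and 406 CPM in Lb. MCM7 did not pass the test, although its groups did not overlap (log2 fold change 0.42 ± 0.107, adjusted p = 0.00710). MCM2 missed the call at -0.98 with DESeq2, -0.998 with the replicate block, -0.86 without La1, -0.98 without Lb2 and -0.99 without Lb3.

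Germ cells use their own copies of several enzymes of energy metabolism. The list of germ-cell isozymes held such enzymes and also other genes, such as the chaperone HSPA2 and the transporter SLC2A3. Of its 12 genes, 11 were in the table and 10 were tested. Of these, 9 were higher, 0 lower and 1 (SLC2A3) not called, with a median log2 fold change of 6.76. SLC2A3 passed the threshold at -1.14 with library totals as the scale, -1.29 with limma on log2(FPKM + 0.1), -1.23 with limma on log2(FPKM + 1), -1.002 without La1, -1.003 without Lb1 and -1.002 without Lb3. The 12 listed somatic isozymes were all tested, 3 (HK1, HK2 and TPI1) were higher, 3 (LDHA, ENO1 and PGAM1) lower and 6 not called, with a median of -0.46. Both shares were near those of all tested mRNAs, 27.5% higher and 20.1% lower. The counts of somatic isozymes depended on the scale, with 2 higher and 5 lower with library totals. With limma on either FPKM scale, 1 was higher and 5 lower, with a median of -0.77. PGK2 (chr7:43839239-43840892), the germ-cell phosphoglycerate kinase, measured 1.99, 0.904 and 0.715 CPM in La and 672, 638 and 511 CPM in Lb. PGK2 was higher in every Lb library than in any La library (log2 fold change 8.98 ± 0.338, adjusted p = 1.53e-07). PGK1 (chrX:62187472-62210321), its somatic counterpart, measured 313, 278 and 301 CPM in La and 166, 165 and 154 CPM in Lb. PGK1 did not pass the test, although its groups did not overlap (log2 fold change -0.86 ± 0.0959, adjusted p = 7.46e-05). PGK1 passed the threshold at -1.03 with library totals as the scale, -1.17 with limma on log2(FPKM + 0.1) and -1.16 with limma on log2(FPKM + 1). On a scale per length, PGK2 averaged 0.600 FPKM in La and 246 in Lb, and PGK1 139 and 61.7, so that the order of their levels turned over between the ages. LDHC (chr2:40748567-40810114), the lactate dehydrogenase of sperm, measured 3.31, 2.56 and 2.70 CPM in La and 579, 385 and 319 CPM in Lb. LDHC rose, with no overlap between the groups (log2 fold change 7.23 ± 0.277, adjusted p = 1.66e-07). LDHA (chr2:40814163-40827284), a somatic lactate dehydrogenase, fell without overlap (log2 fold change -1.25 ± 0.219, adjusted p = 0.00101). GK2 (chr8:138264916-138266872), a glycerol kinase of spermatids and the most abundant gene of the first list, measured 2.72, 1.11 and 1.15 CPM in La and 1344, 1143 and 997 CPM in Lb. GK2 was upregulated in Lb, where its lowest value exceeded the highest of La (log2 fold change 9.45 ± 0.354, adjusted p = 1.50e-07). ENO1 was the most abundant somatic isozyme. HK1 missed the call at 0.999 with limma on log2(FPKM + 0.1) and 0.99 with limma on log2(FPKM + 1). TPI1 missed it at 0.94 with library totals as the scale, 0.80 with limma on log2(FPKM + 0.1) and 0.80 with limma on log2(FPKM + 1).

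Every tested gene of the acrosome and of sperm-egg binding was upregulated, 16 of 16 of the 19 in the table and 20 listed. The median log2 fold change was 7.59, or 7.27 with 1 gene placed at its lower bound, and the list summed to 25.7, 23.3 and 23.05 CPM in La and 4921, 4823 and 4393 CPM in Lb. ACR (chr5:30127-36005), the protease acrosin, measured 0, 0.352 and 0.238 CPM in La and 219.8, 193 and 158 CPM in Lb. ACR increased in all 3 Lb libraries, without overlap (log2 fold change 9.94 ± 0.409, adjusted p = 2.37e-07). CRISP2 (chr7:43751174-43771050), a cysteine-rich protein of the acrosome and tail and the most abundant gene of the list, measured 3.31, 2.36 and 2.07 CPM in La and 1715, 1742 and 1475 CPM in Lb. CRISP2 was higher in every Lb library than in any La library (log2 fold change 9.33 ± 0.214, adjusted p = 3.54e-08). SPACA7 (chr11:77367299-77378342), an acrosome protein, measured 0, 0 and 0 CPM in La and 2.87, 6.73 and 7.90 CPM in Lb. SPACA7 rose, with no overlap between the groups (at least 44.1-fold higher, adjusted p = 0.000128). SPACA3, IZUMO2 and EQTN were too low to be tested, EQTN had no count in the 6 libraries, and SPACA3 and IZUMO2 were called higher in 5 and 6 other settings.

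Proteins that replace histones in spermatids rose in all 5 tested cases, from 9 listed and 5 in the table, with a median log2 fold change of 9.25 also when 1 gene stood at its bound. PRM1 (chr3:31861087-31861529), a protamine and the most abundant gene of the list, measured 2.80, 2.26 and 0.954 CPM in La and 1337, 1121 and 1138 CPM in Lb. PRM1 was upregulated in Lb, where its lowest value exceeded the highest of La (log2 fold change 9.25 ± 0.349, adjusted p = 1.53e-07). TNP2 (chr3:31868517-31871530), a transition protein, measured 0.806, 0.754 and 0.477 CPM in La and 646, 411 and 323 CPM in Lb. TNP2 increased in all 3 Lb libraries, without overlap (log2 fold change 9.42 ± 0.365, adjusted p = 1.78e-07). TNP1 (chr15:119037492-119038099), the other transition protein, measured 0.0848, 0 and 0 CPM in La and 36.1, 25.8 and 30.6 CPM in Lb. TNP1 was higher in every Lb library than in any La library (ratio 1060.3, counting interval 293 to 8761, adjusted p = 6.48e-07). PRM3 (chr3:31865159-31866717) measured 0, 0 and 0 CPM in La and 2.04, 1.74 and 1.18 CPM in Lb. PRM3 rose, with no overlap between the groups (at least 12.5-fold higher, adjusted p = 0.000177). PRM3 missed the threshold at 0.93 with limma on log2(FPKM + 1). PRM1, PRM2 (chr3:31864350-31864959), PRM3 and TNP2 are neighbours on chromosome 3.

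Genes of the sperm tail and its kinases had the second highest median of the 28 lists in edgeR. With limma on log2(FPKM + 1) their median was 5.22, under the 5.52 of the germ-cell isozymes. Of 30 listed genes 29 were in the table and tested, 28 were higher, 0 lower and 1 (FSIP2) not called, with a median log2 fold change of 8.63, or 7.89 with 2 genes at their bounds. The list summed to 96.5, 93.5 and 83.5 CPM in La and 8824, 8476 and 7033 CPM in Lb. ODF1 (chr4:34511077-34520601), a protein of the outer dense fibres, measured 0.976, 0.352 and 0.318 CPM in La and 588, 616 and 545 CPM in Lb. ODF1 was upregulated in Lb, where its lowest value exceeded the highest of La (log2 fold change 10.04 ± 0.312, adjusted p = 7.66e-08). AKAP4 (chrX:43885584-43895142), the main protein of the fibrous sheath, measured 1.78, 1.41 and 1.03 CPM in La and 1009, 659.8 and 608 CPM in Lb. AKAP4 increased in all 3 Lb libraries, without overlap (log2 fold change 9.09 ± 0.306, adjusted p = 9.82e-08). OAZ3 (chr4:97439993-97448493), an antizyme of spermatids and the most abundant gene of the list, measured 4.12, 4.62 and 3.18 CPM in La and 1889, 1516 and 1255 CPM in Lb. OAZ3 was higher in every Lb library than in any La library (log2 fold change 8.63 ± 0.238, adjusted p = 4.99e-08). CATSPER1 (chr2:6312906-6321690), a pore subunit of the sperm calcium channel, measured 0.297, 0 and 0.119 CPM in La and 53.6, 72.1 and 55.5 CPM in Lb. CATSPER1 rose, with no overlap between the groups (log2 fold change 8.66 ± 0.431, adjusted p = 6.73e-07). CATSPER4 (chr6:83607607-83627860), another channel subunit, measured 0, 0 and 0 CPM in La and 2.41, 3.48 and 5.29 CPM in Lb. CATSPER4 was upregulated in Lb, where its lowest value exceeded the highest of La (at least 28.1-fold higher, adjusted p = 0.000114). FSIP2 (chr15:90902067-91000873), a fibrous sheath interacting protein, overlapped between the groups and was called lower at -7.74 without Lb1, the only Lb library in which it was counted.

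Sertoli cell genes fell or were not called with 1 exception. Of 21 listed and in the table, 20 were tested, 1 (NR0B1) was higher, 9 lower and 10 not called, with a median log2 fold change of -0.94. Their summed level was 3667, 4271 and 4111 CPM in La and 1583, 1654 and 1561 CPM in Lb. AMH (chr2:76415564-76418315), the anti-Mullerian hormone of immature Sertoli cells, measured 569, 796 and 695 CPM in La and 2.54, 7.15 and 15.2 CPM in Lb. AMH fell, with no overlap between the groups (log2 fold change -6.35 ± 0.579, adjusted p = 2.31e-05). Without Lb3 AMH stood at -7.14. INHA (chr15:121581847-121586020), the inhibin alpha subunit and the most abundant gene of the list, measured 1293, 1637 and 1435 CPM in La and 125, 275 and 115 CPM in Lb. INHA was downregulated in Lb, where its highest value lay under the lowest of La (log2 fold change -3.07 ± 0.328, adjusted p = 5.86e-05). FSHR (chr3:91607236-91775255), the receptor for follicle-stimulating hormone, measured 92.6, 103 and 111 CPM in La and 47.8, 36.0 and 50.5 CPM in Lb. FSHR decreased in all 3 Lb libraries, without overlap (log2 fold change -1.17 ± 0.156, adjusted p = 0.000207). GDNF (chr16:22936602-22965929), the growth factor for spermatogonial stem cells, measured 3.39, 6.88 and 5.33 CPM in La and 0.879, 0.659 and 0.821 CPM in Lb. GDNF was lower in every Lb library than in any La library (log2 fold change -2.70 ± 0.361, adjusted p = 0.000216). GDNF missed the threshold at -0.85 with limma on log2(FPKM + 1).

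CLDN11 (chr13:109075672-109089097), a claudin of the blood-testis barrier, measured 284, 208 and 220.0 CPM in La and 206, 209.7 and 232 CPM in Lb. CLDN11 did not pass the test, and its groups overlapped (log2 fold change -0.12 ± 0.138, adjusted p = 0.464). SOX9 (chr12:8642154-8647315), the transcription factor of Sertoli cell identity, measured 121, 174 and 172 CPM in La and 85.5, 74.2 and 111 CPM in Lb. SOX9 did not pass the test, although its groups did not overlap (log2 fold change -0.77 ± 0.196, adjusted p = 0.00740). SOX9 passed the threshold at -1.08 with limma on log2(FPKM + 0.1) and -1.04 with limma on log2(FPKM + 1). TJP1 (chr1:144930387-145195857) and GJA1 (chr1:40988818-41002129), proteins of tight and gap junctions, were not called and overlapped between the groups (log2 fold change 0.15 ± 0.1003 and 0.17 ± 0.113). NR0B1 (chrX:26117874-26122951), the nuclear receptor DAX1, measured 4.79, 3.47 and 3.18 CPM in La and 14.6, 11.06 and 10.5 CPM in Lb. NR0B1 increased in all 3 Lb libraries, without overlap (log2 fold change 1.68 ± 0.243, adjusted p = 0.000345). AMHR2 (chr5:18642212-18648859), the receptor for AMH, measured 35.8, 39.6 and 33.7 CPM in La and 2.27, 2.68 and 2.31 CPM in Lb. AMHR2 fell, with no overlap between the groups (log2 fold change -3.89 ± 0.166, adjusted p = 2.78e-07).

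**Figure D2:**
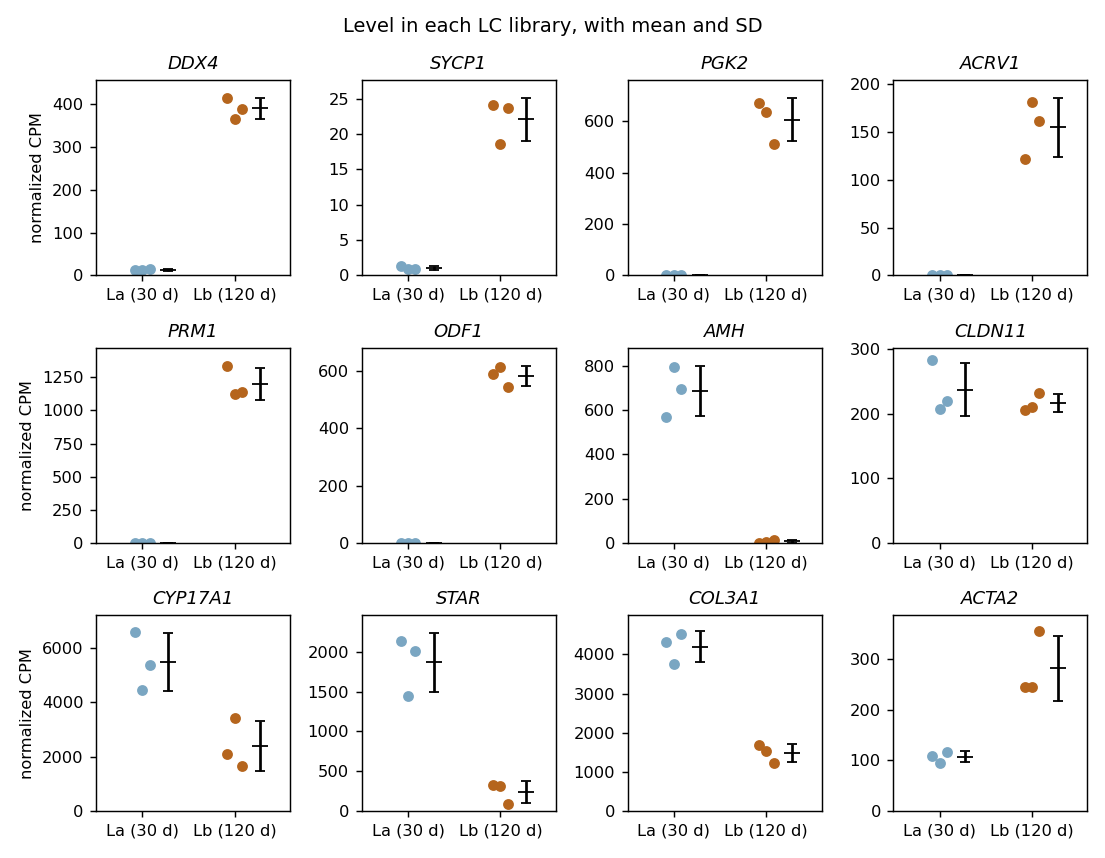
CPM after TMM scaling (vertical axes, from 0) of 12 genes in each LC library at 30 days (La) and 120 days (Lb), where points are libraries and the bars beside them are mean and SD of 3. DDX4, SYCP1, PGK2, ACRV1, PRM1 and ODF1 were higher in each Lb library, AMH, CYP17A1, STAR and COL3A1 were lower, ACTA2 was higher and CLDN11 overlapped.

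Leydig cell genes were lower or not called. Of 20 listed and in the table, 18 were tested, 0 were higher, 14 lower and 4 (HSD3B1, INSL3, SRD5A1 and STS) not called, with a median log2 fold change of -1.35. HSD3B1 passed the threshold at -1.06 with limma on log2(FPKM + 0.1) and -1.01 with limma on log2(FPKM + 1). The list summed to 22257, 15164 and 18414 CPM in La and 7292, 10484 and 4750.3 CPM in Lb. STAR (chr15:48377597-48385398), the carrier of cholesterol into mitochondria, measured 2141, 1449 and 2011 CPM in La and 324, 309.7 and 83.3 CPM in Lb. STAR was downregulated in Lb, where its highest value lay under the lowest of La (log2 fold change -2.96 ± 0.457, adjusted p = 0.000498). Within Lb, STAR was lowest in Lb3, and without Lb3 its log2 fold change was -2.55 and the list had 12 lower members. CYP11A1 (chr7:59172829-59188479), the first enzyme of steroid synthesis, measured 1424, 953 and 1112 CPM in La and 355, 589.9 and 238 CPM in Lb. CYP11A1 decreased in all 3 Lb libraries, without overlap (log2 fold change -1.55 ± 0.302, adjusted p = 0.00186). CYP11A1 missed the threshold at -1.56 with the 12 libraries in 1 fit. CYP17A1 (chr14:113805616-113820445), the enzyme on the way to androgens and the most abundant gene of the list, measured 6610.3, 4463 and 5383 CPM in La and 2098, 3419 and 1658 CPM in Lb. CYP17A1 was lower in every Lb library than in any La library (log2 fold change -1.19 ± 0.259, adjusted p = 0.00340). CYP17A1 missed the threshold at -1.20 with the 12 libraries in 1 fit and -0.98 without Lb3. LHCGR (chr3:91964415-92023821), the receptor for luteinizing hormone, was also lower without overlap (log2 fold change -1.45 ± 0.201, adjusted p = 0.000271). INSL3 (chr2:59929591-59931220), a peptide hormone of Leydig cells, measured 2733, 1812 and 1958 CPM in La and 1849.9, 2744 and 792 CPM in Lb. INSL3 did not pass the test, and its groups overlapped (log2 fold change -0.26 ± 0.376, adjusted p = 0.549). Without Lb3 it stood at 0.09.

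HSD17B3, the last enzyme of testosterone synthesis, was lower (log2 fold change -1.02 ± 0.103, adjusted p = 4.25e-05) and missed the call at -0.99 with DESeq2, -0.996 without La1 and -0.97 without Lb1. CYP19A1 (chr1:120596235-120627806), the aromatase, was too low to be tested, at 0.0901 CPM on average in La and 0.0154 in Lb, and HSD17B1 had no count in the 6 libraries.

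Cholesterol synthesis supplies the substrate of these enzymes. Of 23 listed genes 21 were in the table and tested, 1 (NSDHL) was higher, 9 lower and 11 not called, with a median log2 fold change of -0.95 and a sum of 5697, 4410.4 and 5028 CPM in La and 2597, 2692 and 2035 CPM in Lb. NSDHL (chrX:123906130-123921935), a sterol dehydrogenase, measured 61.0, 50.7 and 50.8 CPM in La and 209, 192 and 178 CPM in Lb. NSDHL was higher in every Lb library than in any La library (log2 fold change 1.85 ± 0.118, adjusted p = 2.84e-06).

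Of 10 contractile genes of peritubular myoid cells, all tested, 3 (ACTA2, ACTG2 and CNN1) were higher, a share near the 27.5% of all tested mRNAs. Another 7 were not called and 0 were lower. The median log2 fold change of this list was 0.35. With limma, 1 was higher and the median was 0.01 on either FPKM scale, and with library totals it was 0.18. Stroma and matrix genes numbered 24, of which 23 were in the table and tested, 1 (POSTN) higher, 15 lower and 7 not called, with a median of -1.34 and a summed level of 13579, 12057 and 14533 CPM in La and 5274, 5813 and 4984 CPM in Lb. ACTA2 (chr14:100868145-100886732), the smooth muscle actin and the most abundant contractile gene, measured 109, 95.5 and 117 CPM in La and 245, 246 and 356 CPM in Lb. ACTA2 rose, with no overlap between the groups (log2 fold change 1.42 ± 0.177, adjusted p = 0.000144). MYH11 (chr3:7002667-7143093), the smooth muscle myosin, overlapped (log2 fold change 0.33 ± 0.232, adjusted p = 0.226). COL3A1 (chr15:93556914-93595678), a fibrillar collagen and the most abundant matrix gene, measured 4304, 3763 and 4527 CPM in La and 1679, 1527 and 1221 CPM in Lb. COL3A1 fell, with no overlap between the groups (log2 fold change -1.49 ± 0.139, adjusted p = 2.57e-05). LUM (chr5:91748871-91756381), the proteoglycan lumican, measured 184, 208 and 244 CPM in La and 31.4, 18.4 and 35.2 CPM in Lb. LUM was downregulated in Lb, where its highest value lay under the lowest of La (log2 fold change -2.88 ± 0.248, adjusted p = 1.63e-05). POSTN (chr11:13225183-13258973), the matrix protein periostin, measured 6.53, 3.37 and 6.08 CPM in La and 15.1, 27.4 and 35.1 CPM in Lb. POSTN was upregulated in Lb, where its lowest value exceeded the highest of La (log2 fold change 2.29 ± 0.365, adjusted p = 0.000598). COL1A1 (chr12:26379087-26397180), the main fibrillar collagen, measured 295, 260.1 and 353 CPM in La and 168, 156 and 140.2 CPM in Lb. COL1A1 did not pass the test, although its groups did not overlap (log2 fold change -0.95 ± 0.135, adjusted p = 0.000302). COL1A1 passed the threshold at -1.12 with library totals as the scale, -1.25 with limma on log2(FPKM + 0.1), -1.21 with limma on log2(FPKM + 1), -1.06 without La2 and -1.01 without Lb1.

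ACTG2, an actin of smooth muscle, missed the call at 0.93 with limma on log2(FPKM + 0.1) and 0.80 with limma on log2(FPKM + 1). CNN1, the calponin, missed it at 0.92 with library totals as the scale, 0.74 with limma on log2(FPKM + 0.1), 0.61 with limma on log2(FPKM + 1), 0.99 without La2 and 0.95 without Lb3.

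Of 11 endothelial genes, all tested, 0 were higher, 7 lower and 4 not called, with a median log2 fold change of -1.22 and a sum of 964, 763 and 917 CPM in La and 384, 596 and 347 CPM in Lb. Without La1 or without Lb3, 5 were lower. KDR (chr8:41809116-41856379), a receptor for vascular endothelial growth factor, measured 127, 116 and 133 CPM in La and 38.0, 49.0 and 33.5 CPM in Lb. KDR decreased in all 3 Lb libraries, without overlap (log2 fold change -1.63 ± 0.149, adjusted p = 2.39e-05). VWF (chr5:64516627-64655938), von Willebrand factor and the most abundant gene of the list, measured 556, 429 and 543 CPM in La and 249, 393 and 214 CPM in Lb. VWF did not pass the test, although its groups did not overlap (log2 fold change -0.82 ± 0.218, adjusted p = 0.00898). VWF passed the threshold at -1.17 with limma on log2(FPKM + 0.1), -1.13 with limma on log2(FPKM + 1) and -1.12 without Lb2. Of 11 macrophage genes, all tested, 1 (MRC1) was higher, 8 lower and 2 not called, with a median of -1.64 and a sum of 468, 436 and 438 CPM in La and 220.3, 211 and 228 CPM in Lb. CD163 (chr5:63300200-63334497), a scavenger receptor of resident macrophages, measured 44.0, 37.5 and 38.7 CPM in La and 4.21, 6.92 and 9.39 CPM in Lb. CD163 was lower in every Lb library than in any La library (log2 fold change -2.53 ± 0.275, adjusted p = 6.47e-05). MRC1 (chr10:44107926-44226734), the mannose receptor, measured 44.8, 49.9 and 58.3 CPM in La and 143, 95.7 and 89.5 CPM in Lb. MRC1 increased in all 3 Lb libraries, without overlap (log2 fold change 1.11 ± 0.191, adjusted p = 0.000898). MRC1 missed the threshold at 0.94 with library totals as the scale, 0.77 with limma on log2(FPKM + 0.1), 0.71 with limma on log2(FPKM + 1) and 0.89 without Lb1. C1QC (chr6:80592591-80597464), a chain of complement C1q and the most abundant gene of the list, was lower without overlap (log2 fold change -1.49 ± 0.186, adjusted p = 0.000146).

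Class II genes of antigen presentation were downregulated in all 8 of 8 tested cases, with a median of -1.69 and a sum of 1112, 1013 and 1004 CPM in La and 275, 343 and 298 CPM in Lb. CD74 (chr2:151402210-151409924), the invariant chain and the most abundant gene of the list, measured 301, 253 and 269 CPM in La and 70.2, 103 and 86.8 CPM in Lb. CD74 fell, with no overlap between the groups (log2 fold change -1.65 ± 0.154, adjusted p = 2.68e-05). Of 10 lymphocyte genes in the table, 8 were tested, 0 were higher, 6 lower and 2 (CD4 and CD79B) not called, with a median of -1.89 and a sum of 53.3, 44.5 and 44.5 CPM in La and 24.3, 18.8 and 23.7 CPM in Lb. With limma on log2(FPKM + 1), 4 were lower and the median was -0.89. CD79B passed the threshold at -1.99 with library totals as the scale and -1.59 with limma on log2(FPKM + 0.1). CD2 (chr4:103963802-103976971), an adhesion molecule of T cells, measured 6.79, 6.93 and 7.51 CPM in La and 0.324, 0 and 0.513 CPM in Lb. CD2 was downregulated in Lb, where its highest value lay under the lowest of La (log2 fold change -4.64 ± 0.671, adjusted p = 0.000343). CD4 (chr5:63892129-63918547), the coreceptor of helper T cells and the most abundant gene of the list, overlapped between the groups (log2 fold change -0.02 ± 0.216, adjusted p = 0.930). For blood and mast cells, 5 of 7 genes were in the table and 3 were tested, and 0 were higher, 1 (MS4A2) lower and 2 not called, with a median of -1.0 and a sum of 74.1, 28.4 and 28.1 CPM in La and 12.2, 16.3 and 34.1 CPM in Lb. HBB (chr9:4800683-4801941), a haemoglobin chain and its most abundant gene, measured 62.2, 21.3 and 19.99 CPM in La and 9.34, 12.9 and 28.7 CPM in Lb. HBB did not pass the test, and its groups overlapped (log2 fold change -1.0 ± 0.538, adjusted p = 0.127). HBB passed the threshold at -1.62 without Lb3. Without La1, its highest library, HBB stood at -0.27 and the median of the list at -0.37. The mast cell protease gene CPA3 had no count in the 6 libraries. MS4A2 missed its call at -0.60 with limma on log2(FPKM + 1). The part of these somatic cells in the other differences by age was not tested.

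In the hedgehog pathway, through which Sertoli cells signal to Leydig and myoid cells, all 9 listed genes were tested, 0 were higher, 6 lower and 3 (DHH and GLI1 among them) not called, with a median log2 fold change of -1.40. GLI1 passed the threshold at -1.02 with library totals as the scale and -1.11 with limma on log2(FPKM + 0.1). DHH (chr5:15114524-15119610), the ligand, measured 17.9, 23.7 and 19.8 CPM in La and 18.6, 16.9 and 14.5 CPM in Lb. DHH did not pass the test, and its groups overlapped (log2 fold change -0.28 ± 0.167, adjusted p = 0.162). PTCH1 (chr10:26627165-26703225), the receptor and most abundant gene of the list, measured 173, 204 and 194 CPM in La and 68.3, 58.0 and 88.1 CPM in Lb. PTCH1 decreased in all 3 Lb libraries, without overlap (log2 fold change -1.40 ± 0.169, adjusted p = 0.000119). SMO (chr18:19450730-19478796), the signal transducer, measured 99.0, 124 and 112 CPM in La and 25.2, 22.2 and 35.1 CPM in Lb. SMO was lower in every Lb library than in any La library (log2 fold change -2.00 ± 0.192, adjusted p = 3.20e-05). For retinoic acid, 13 of 16 genes were in the table and 12 were tested, and 6 were higher, 2 lower and 4 not called, with a median of 1.11. With limma on log2(FPKM + 1), 3 were higher and 1 lower, with a median of 0.48. ALDH1A2 (chr1:113932722-114037059), a synthesizing enzyme and the most abundant gene of the list, measured 59.9, 46.6 and 54.3 CPM in La and 233, 233 and 186 CPM in Lb. ALDH1A2 was higher in every Lb library than in any La library (log2 fold change 2.03 ± 0.137, adjusted p = 3.88e-06). RBP4, which was among the lower ones, missed its call at -0.54 with limma on log2(FPKM + 1).

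Of 14 genes of the IGF pathway, all in the table, 12 were tested, 1 (IGF1) was higher, 4 lower and 7 not called, with a median of -0.78. The number of lower ones depended on the scale, with 7 lower with limma on log2(FPKM + 0.1) and 6 with library totals or with limma on log2(FPKM + 1). IGF1 (chr5:81762027-81909253), a growth factor, measured 24.3, 21.7 and 33.9 CPM in La and 67.2, 55.5 and 112 CPM in Lb. IGF1 rose, with no overlap between the groups (log2 fold change 1.57 ± 0.288, adjusted p = 0.00132). IGF2 (chr2:1469183-1496417), the fetal growth factor, measured 93.9, 125 and 123 CPM in La and 39.6, 31.7 and 37.5 CPM in Lb. IGF2 fell, with no overlap between the groups (log2 fold change -1.64 ± 0.153, adjusted p = 2.64e-05). IGF1 and IGF2 moved in opposite directions, and IGF2R was the most abundant gene of the list. Of 20 genes of TGF-beta and activin signalling, 18 were tested, 1 (TGFB2) was higher, 6 lower and 11 not called, with a median of -0.83. TGFBR3 (chr4:125109939-125310788), the co-receptor betaglycan and the most abundant gene of the list, measured 238, 209 and 239 CPM in La and 49.7, 55.8 and 45.8 CPM in Lb. TGFBR3 was downregulated in Lb, where its highest value lay under the lowest of La (log2 fold change -2.16 ± 0.116, adjusted p = 1.01e-06). TGFB2 (chr10:8306136-8435307), a ligand, measured 7.42, 11.7 and 11.2 CPM in La and 28.0, 27.4 and 39.1 CPM in Lb. TGFB2 was upregulated in Lb, where its lowest value exceeded the highest of La (log2 fold change 1.66 ± 0.233, adjusted p = 0.000286). TGFB2 missed the threshold at 0.98 with limma on log2(FPKM + 1).

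Of 22 genes of WNT signalling in the table, 19 were tested, 1 (LEF1) was higher, 13 lower and 5 not called, with a median of -1.42. WNT6 (chr15:120901471-120917359), a ligand, measured 21.8, 17.1 and 16.7 CPM in La and 1.06, 2.26 and 1.28 CPM in Lb. WNT6 decreased in all 3 Lb libraries, without overlap (log2 fold change -3.57 ± 0.305, adjusted p = 1.58e-05). LEF1 (chr8:113824511-113944078), a nuclear effector, measured 10.01, 9.14 and 9.14 CPM in La and 25.9, 31.6 and 29.0 CPM in Lb. LEF1 increased in all 3 Lb libraries, without overlap (log2 fold change 1.63 ± 0.149, adjusted p = 2.36e-05). LEF1 missed the threshold at 0.97 with limma on log2(FPKM + 1).

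As genes of general function, 20 ribosomal protein genes were in the table and 18 were tested. Of these, 0 were higher, 4 (RPL3, RPL4 and RPL5 among them) lower and 14 not called, with a median log2 fold change of -0.74. The share of lower ones was near the 20.1% of all tested mRNAs. This list depended on the scale, with 8 members lower with library totals and 10 lower with limma on log2(FPKM + 0.1), and none was higher with either. RPLP0 (chr14:40219196-40223943), a stalk protein of the large subunit and the most abundant gene of the list, measured 2553, 2413 and 2096 CPM in La and 3884, 4061 and 3425 CPM in Lb. RPLP0 did not pass the test, although its groups did not overlap (log2 fold change 0.70 ± 0.114, adjusted p = 0.000668).

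Of 13 mRNAs on a list of qPCR targets and discussed genes, 12 were tested, 4 (SPATS1, SPO11, SHCBP1L and SPATA3) were higher, 6 lower and 2 (DHH and CYP21A2) not called, with a median of -1.04. Since the study chose them on these boars, they are no independent evidence of direction. SPO11 (chr17:57730676-57745875), the nuclease that makes the double-strand breaks of meiosis, measured 0.891, 0.955 and 0.517 CPM in La and 5.23, 3.20 and 4.72 CPM in Lb. SPO11 was higher in every Lb library than in any La library (log2 fold change 2.49 ± 0.365, adjusted p = 0.000369). SHCBP1L (chr9:124188457-124221850), a testis protein of the meiotic spindle, measured 1.40, 1.41 and 0.994 CPM in La and 318, 271 and 255 CPM in Lb. SHCBP1L rose, with no overlap between the groups (log2 fold change 7.81 ± 0.183, adjusted p = 3.54e-08). PDGFRB (chr2:151155753-151192818), a receptor of perivascular and stromal cells, measured 222, 197 and 207 CPM in La and 55.9, 88.4 and 68.6 CPM in Lb. PDGFRB was lower in every Lb library than in any La library (log2 fold change -1.54 ± 0.166, adjusted p = 6.13e-05). CYP21A2, which was not called, passed the threshold at -2.48 without Lb2. HSD17B4 was the most abundant gene of this list, and PDCL2 was too low to be tested and called higher with no filter. The qPCR primers of SPO11, PDGFRB and LOC102166140 are shown because they identify the stretch measured in an upregulated mRNA, a downregulated mRNA and an upregulated lncRNA.
SPO11 forward: gcaacacttacgcaaccaa
SPO11 reverse: cggcactttcaacatacag
PDGFRB forward: ccccacatccgttctatcc
PDGFRB reverse: tccagctctccaatcagcc
LOC102166140 forward: agttgccagcaagaacactt
LOC102166140 reverse: tgtcccaaaccatcctgagt

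Outside the lists, the upregulated mRNAs with the smallest adjusted p were GSG1, FAM229B, BPIFA3, SPINK2 and YBX2. GSG1 (chr5:59391069-59413835), a germ-cell membrane protein, measured 0.679, 0.904 and 0.755 CPM in La and 755, 615 and 600.4 CPM in Lb. GSG1 was upregulated in Lb, where its lowest value exceeded the highest of La (log2 fold change 9.73 ± 0.187, adjusted p = 2.81e-08). SPINK2 (chr8:55982377-55989592), a protease inhibitor of the acrosome, measured 0.339, 0.251 and 0.437 CPM in La and 201, 223 and 191 CPM in Lb. SPINK2 increased in all 3 Lb libraries, without overlap (log2 fold change 9.19 ± 0.186, adjusted p = 2.81e-08). YBX2 (chr12:52635383-52642443), a Y-box protein that stores mRNA in germ cells, measured 1.40, 1.31 and 1.03 CPM in La and 405, 412 and 371 CPM in Lb. YBX2 was higher in every Lb library than in any La library (log2 fold change 8.33 ± 0.155, adjusted p = 2.81e-08). FAM229B (chr1:78048496-78063211) and BPIFA3 (chr17:36738532-36749816), a member of the BPI fold family, had log2 fold changes of 7.60 ± 0.140 and 9.90 ± 0.202, also without overlap. The most abundant upregulated ones were PKDREJ, ANKRD35, ACTG1, HSP90AA1 and REXO5. PKDREJ (chr5:3270753-3283058), a sperm membrane protein of the polycystin family, measured 15.3, 9.65 and 9.66 CPM in La and 4309, 4372 and 3157 CPM in Lb. PKDREJ rose, with no overlap between the groups (log2 fold change 8.43 ± 0.273, adjusted p = 8.44e-08). HSP90AA1, a stress-inducible chaperone, measured 722, 801 and 832 CPM in La and 2646, 2295 and 2250.3 CPM in Lb. HSP90AA1 was upregulated in Lb, where its lowest value exceeded the highest of La (log2 fold change 1.63 ± 0.112, adjusted p = 4.32e-06). ANKRD35 (chr4:99441264-99460877), an ankyrin repeat protein, and REXO5 (chr3:25175690-25239006), an RNA exonuclease, had log2 fold changes of 9.46 ± 0.232 and 6.31 ± 0.204. ACTG1 (chr12:1320355-1323219), a cytoplasmic actin, was called at 1.21 ± 0.0974 and missed the call at 0.89 with limma on log2(FPKM + 0.1) and 0.89 with limma on log2(FPKM + 1).

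Among downregulated mRNAs outside the lists, CHGA, C7H14orf132, CBR1, THBS4 and CHD8 had the smallest adjusted p. CHGA (chr7:114345542-114357799), chromogranin A of secretory granules, measured 233, 241 and 223 CPM in La and 1.80, 2.31 and 2.93 CPM in Lb. CHGA fell, with no overlap between the groups (log2 fold change -6.61 ± 0.187, adjusted p = 5.88e-08). CBR1 (chr13:199617406-199622407), a carbonyl reductase, measured 666, 545 and 594 CPM in La and 9.30, 13.3 and 8.98 CPM in Lb. CBR1 was downregulated in Lb, where its highest value lay under the lowest of La (log2 fold change -5.82 ± 0.191, adjusted p = 8.73e-08). THBS4 (chr2:88729531-88780759), a matrix thrombospondin, C7H14orf132 (chr7:117242442-117291577) and CHD8 (chr7:77719476-77780148), a chromatin remodeller, had log2 fold changes of -6.67 ± 0.238, -5.70 ± 0.166 and -3.24 ± 0.119, without overlap. DHRS4, VIM, TPT1, HSPG2 and RPS4X were the most abundant downregulated mRNAs outside the lists. VIM (chr10:43516441-43526172), the vimentin filament of Sertoli and stromal cells, measured 3178, 2908 and 3192 CPM in La and 731, 1132 and 477 CPM in Lb. VIM decreased in all 3 Lb libraries, without overlap (log2 fold change -1.98 ± 0.268, adjusted p = 0.000237). DHRS4 (chr7:75242121-75255594), a short-chain dehydrogenase, measured 6584, 4746 and 5158 CPM in La and 1632, 2779.7 and 658 CPM in Lb. DHRS4 was lower in every Lb library than in any La library (log2 fold change -1.69 ± 0.428, adjusted p = 0.00716). DHRS4 missed the threshold at -1.70 with the 12 libraries in 1 fit. Without Lb3, VIM stood at -1.72 and DHRS4 at -1.31. TPT1 (chr11:21929294-21932905), a translationally controlled protein, and HSPG2 (chr6:79849691-79958283), the basement membrane proteoglycan perlecan, had log2 fold changes of -1.09 ± 0.104 and -1.82 ± 0.168. MSTRG.25122, an assembled mRNA without a position in the table, held 7.49%, 9.62% and 8.14% of the mRNA counts in La and 5.29%, 5.07% and 3.55% in Lb, and was not called.

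Among lncRNAs, 2988 of 10706 were tested and 1825 (61.1%) were called, 1248 (41.8%) higher and 577 (19.3%) lower in Lb, on a scale of lncRNA counts alone. LncRNA counts came to 595622, 527499 and 496269 in La and 692856, 702851 and 639036 in Lb, so that 3 counts are 5.02 to 6.43 CPM of lncRNA in La and 4.09 to 4.44 in Lb. The median log2 fold change was 0.68, or 1.23 on the scale of the mRNAs, 0.78 with library totals and 0.18 with limma on log2(FPKM + 1), and the share of calls that were higher was 68.4%, 80.8%, 70.6% and 88.0%. Of 941 lncRNAs assembled in the study, 710 were higher and 121 lower (median 5.35). Of 2047 known lncRNAs, 538 were higher and 456 lower (median -0.08), and the difference from the assembled ones was not tested. Assembled transcripts were built from the reads of the study's own libraries, so their presence among the tested lncRNAs can itself depend on a high level at 1 age. What this adds to their skew was not tested. Assembled lncRNAs of class code o had 24 higher and 19 lower of 61 (median -0.43), and the other class codes had medians of 3.81 to 7.17. Of the 1248 upregulated lncRNAs, 658 had La at the floor, where the log2 fold change is a fitted value and not exact. Upregulated lncRNAs held 3.13% ± 0.257 of lncRNA CPM in La and 50.4% ± 0.648 in Lb (SD, n = 3), and downregulated ones 59.8% ± 1.91 and 18.1% ± 1.10. As for the mRNAs, the direction of these shares followed from calls made in the same libraries. MSTRG.1396.1 (chr1:196448587-196480643), an assembled lncRNA, measured 95.5, 48.5 and 34.3 CPM in La and 21778, 24783 and 25413 CPM in Lb. MSTRG.1396.1 increased in all 3 Lb libraries, without overlap (log2 fold change 8.63 ± 0.527, adjusted p = 1.69e-05). MSTRG.20496.1 (chr14:103964578-103972786) measured 15.1, 11.6 and 12.9 CPM in La and 3164, 2645 and 1973 CPM in Lb. MSTRG.20496.1 was higher in every Lb library than in any La library (log2 fold change 7.59 ± 0.355, adjusted p = 1.09e-05). ISYNA1 (chr2:59363672-59367003), here the noncoding transcript of that gene, measured 11572, 9641 and 13915 CPM in La and 46952, 61238 and 38844 CPM in Lb. ISYNA1 rose, with no overlap between the groups (log2 fold change 2.08 ± 0.269, adjusted p = 0.000419). The upregulated LOC110258599, MSTRG.24700.1 and MSTRG.15978.2 (chr11:7943582-7984175) had log2 fold changes of 7.98 (La at the floor, no SE), 7.84 ± 0.338 and 7.39 ± 0.516.

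MSTRG.17058.1 (chr12:26365148-26376275), an assembled lncRNA next to COL1A1, measured 913, 1252 and 1027 CPM in La and 15.0, 7.40 and 9.93 CPM in Lb. MSTRG.17058.1 fell, with no overlap between the groups (log2 fold change -6.59 ± 0.374, adjusted p = 1.48e-05). LOC106509199 (chr1:236380010-236382894) measured 196512, 225320.0 and 201578 CPM in La and 63474, 82953 and 58371 CPM in Lb. LOC106509199 was downregulated in Lb, where its highest value lay under the lowest of La (log2 fold change -1.60 ± 0.253, adjusted p = 0.000991). The downregulated MSTRG.2345.1 (chr2:6748961-6758836), LOC100519934 (chr1:73119758-73124368), MSTRG.14558.2 (chr9:61468019-61496977) and the noncoding transcript of GSN (chr1:261295711-261372848) had log2 fold changes of -1.90 ± 0.279, -6.20 ± 0.348, -8.55 (Lb at the floor, no SE) and -2.39 ± 0.276. Of 10 transcripts of the lncRNAs with qPCR primers, LOC102165633 and LOC110259451 were downregulated, 7 were upregulated and MSTRG.15011.2 was not tested. For MSTRG.12845 and MSTRG.15011 the primers are listed by gene, without a transcript. LOC110259451 (chr2:123403323-123413588), a known lncRNA of chromosome 2, measured 2090.2, 1062 and 2342 CPM in La and 470.0, 568 and 474 CPM in Lb. LOC110259451 decreased in all 3 Lb libraries, without overlap (log2 fold change -1.84 ± 0.327, adjusted p = 0.00162). LOC102166140 (chr8:54950106-54963084) measured 1.67, 3.88 and 2.14 CPM in La and 105, 65.1 and 62.4 CPM in Lb. LOC102166140 was upregulated in Lb, where its lowest value exceeded the highest of La (log2 fold change 4.82, La at the floor, no SE, adjusted p = 0.000279). LOC102166140 missed the threshold at 0.96 with limma on log2(FPKM + 1). MSTRG.12845.3 (chr8:4723595-4727173) measured 0, 0 and 0 CPM in La and 81.7, 62.1 and 49.6 CPM in Lb. MSTRG.12845.3 increased in all 3 Lb libraries, without overlap (at least 11.2-fold higher, adjusted p = 0.000506). MSTRG.5259.1 missed its call at 0.75 with limma on log2(FPKM + 1). LOC102165633 missed its call at -0.74 with limma on log2(FPKM + 1). MSTRG.15011.1 missed it at 0.77 with limma on log2(FPKM + 1). MSTRG.189.1 missed it at 0.67 with limma on log2(FPKM + 1) and 1.25 without Lb2.

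Called lncRNAs and called mRNAs within 10 kb of each other, without overlap of their spans, formed 277 pairs. In 139 pairs the lncRNA and the mRNA were higher and in 57 they were lower, in 53 the lncRNA was higher and the mRNA lower, and in 28 the reverse held. Of all called genes, 68.4% of lncRNAs and 57.7% of mRNAs were higher. For 341 pairs with overlapping spans the counts were 133, 89, 89 and 30 in the same order. MSTRG.12391.2 (chr7:88596924-88606986) lay 154 bases from HSPA2 (chr7:88607140-88609947), a chaperone of meiotic germ cells, and rose with it (log2 fold changes 6.20 and 4.13). HSPA2 measured 56.9, 49.6 and 56.0 CPM in La and 927, 1054 and 829 CPM in Lb. HSPA2 was higher in every Lb library than in any La library (log2 fold change 4.13 ± 0.131, adjusted p = 8.30e-08).

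By position, mRNAs of the X chromosome were called lower more often than higher, 185 and 124 of 614 tested, with a median log2 fold change of -0.50. On the autosomes together, 3062 were lower and 3740 higher of 14947, with a median of -0.03. The most abundant X-linked mRNAs called lower were RPS4X, RPL10, TSC22D3, TMSB4X and PHEX, and those called higher were AKAP4, VSIG1, ARHGAP36, SLC6A8 and CA5B. RPS4X (chrX:58149302-58155179), the X-linked ribosomal protein of the small subunit, measured 2244, 1953 and 1939 CPM in La and 725, 864 and 647 CPM in Lb. RPS4X was lower in every Lb library than in any La library (log2 fold change -1.44 ± 0.129, adjusted p = 2.07e-05). RPS4X missed the threshold at -1.46 with the 12 libraries in 1 fit. In HZ, RPS4X measured 29.9, 19.5 and 20.1 CPM in Ha and 9.91, 5.29 and 0 CPM in Hb, far under both LC groups, and what this locus measures in the 2 breeds was not tested. VSIG1 missed the threshold at 0.90 with limma on log2(FPKM + 0.1) and 0.89 with limma on log2(FPKM + 1). SLC6A8 (chrX:124435282-124452182), a creatine transporter, measured 127, 86.3 and 97.6 CPM in La and 376, 256 and 206 CPM in Lb. SLC6A8 rose, with no overlap between the groups (log2 fold change 1.44 ± 0.229, adjusted p = 0.000581). Chromosome 18 had 31.7% of its tested mRNAs higher and chromosome 8 had 19.6%, the highest and the lowest share among autosomes. Assembled mRNAs without a position were higher in 581 of 733 cases and lower in 49, with a median of 6.23. These were also built from the reads of the study's own libraries, and what this adds to their skew was not tested.

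On the Y chromosome, 28 of 50 tested mRNAs were higher and 6 lower, with a median log2 fold change of 2.89. Of the higher ones, 22 were short LOC loci at chrY:19541187-23945894, 20 of them with the same span of 1632 bases. These 22 loci summed to 0, 0.0502 and 0.0397 CPM in La and 67.7, 89.3 and 70.0 CPM in Lb. Since these loci were taken from the mRNAs called higher, the direction of their sums in LC followed from that choice. Of the 22 loci, 20 had no count in La. In HZ they summed to 0 CPM in each Ha library and to 76.6, 90.8 and 48.9 CPM in Hb. Reads of near-identical copies can be shared between such loci, so that their number is not a number of independent genes.

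**Figure D3:**
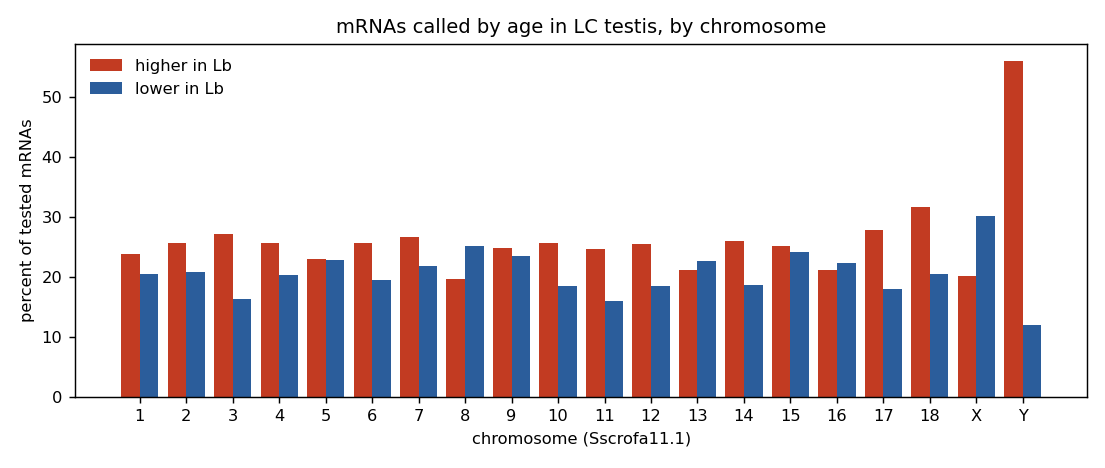
Percent of tested mRNAs (vertical axis) called higher or lower in LC testes of 120 days than of 30 days, by chromosome of Sscrofa11.1 (horizontal axis). The Y chromosome had 56.0% higher and 12.0% lower, and the X chromosome 20.2% higher and 30.1% lower.

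Whether the difference by age in LC differed from that in HZ was tested as an interaction, where a positive value means that Lb over La exceeded Hb over Ha. Of 17332 mRNAs tested, 890 (5.14%) were called, 609 of them positive and 281 negative. The split depended on the processing, with 882 positive and 199 negative with library totals, 1068 positive and 297 negative with limma on log2(FPKM + 0.1) and 810 positive and 553 negative with DESeq2. The total of 890 went to 437 without Ha1, 501 without Ha2, 566 without Hb3, 577 without La1, 490 without La2, 461 without La3 and 575 without Lb2. Of the positive ones, 220 were upregulated by age in LC and 134 downregulated, and of the negative ones 108 and 78. HK2, a hexokinase, measured 13.7, 10.05 and 11.6 CPM in La and 168, 151 and 134 CPM in Lb. HK2 rose in LC without overlap (log2 fold change 3.69 ± 0.156, adjusted p = 2.73e-07), while HZ had 62.8, 62.0 and 46.7 CPM in Ha and 89.9, 84.3 and 80.3 CPM in Hb, and its interaction was called (difference 3.10 ± 0.218, adjusted p = 0.000143). EXOSC9 (chr8:102265656-102278179), a subunit of the RNA exosome, measured 13.7, 13.5 and 13.0 CPM in La and 21.1, 18.6 and 18.3 CPM in Lb. EXOSC9 was not called by age in LC (log2 fold change 0.55 ± 0.145, adjusted p = 0.00913), stood at 14.4, 15.3 and 13.5 CPM in Ha and 78.9, 92.6 and 126 CPM in Hb, and had a negative interaction (difference -2.25 ± 0.229, adjusted p = 0.00114). CBR1 had 568, 645 and 830.2 CPM in Ha and 0.696, 0.836 and 0.659 CPM in Hb in addition to its fall in LC, and a positive interaction (difference 4.002 ± 0.296, adjusted p = 0.000143).

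Among the lists, stroma and matrix held the most called interactions, 14 positive and 1 (COL18A1) negative of 23 tested, beside 5.14% of all mRNAs. ELN, the gene of elastin, measured 207, 163 and 215 CPM in La and 272, 533 and 301 CPM in Lb. ELN was not called by age in LC (log2 fold change 0.93 ± 0.246, adjusted p = 0.00894) and passed the threshold at 1.004 without La3, 1.12 without Lb1 and 1.052 without Lb3. HZ had 260.4, 286 and 198 CPM in Ha and 46.1, 14.2 and 20.4 CPM in Hb, and the interaction was called (difference 4.13 ± 0.547, adjusted p = 0.00344). For COL1A1 the HZ libraries had 196, 283 and 181 CPM in Ha and 9.80, 4.88 and 6.13 CPM in Hb, and the interaction was 4.02 ± 0.345 (adjusted p = 0.000372). ACTA2, ACTG2 and CNN1 of the myoid cells also had called positive interactions (2.54, 3.37 and 2.12). No Leydig cell gene had a called interaction in edgeR with the 12 libraries. In that fit 6 of 18 had an unadjusted p under 0.05, beside 4180 of all 17332 mRNAs. Limma called 4 with log2(FPKM + 1) and 2 with log2(FPKM + 0.1), and DESeq2 called 0. Over all 17332 mRNAs these settings called 912, 1365 and 1363. Without Hb1, 11 of 18 tested Leydig cell genes had a called positive interaction, beside 757 of all 17595 mRNAs. The median interaction of the list was 0.86 with Hb1 and 1.72 without it, and 0.53 without Lb2, 0.54 without Hb3 and 0.60 without Hb2. CYP17A1 stood at 3617, 3493 and 3538 CPM in Ha and 1444, 21.2 and 19.3 CPM in Hb, so that Hb1 was far above Hb2 and Hb3. Among lncRNAs, edgeR called 1 interaction of 3886 tested (0.0257%), LOC106504562 (chr7:46553813-46567596), while 443 had an unadjusted p under 0.05, DESeq2 called 124 and limma 122 with log2(FPKM + 1) and 164 with log2(FPKM + 0.1). LOC106504562 measured 62.0, 107 and 163 CPM in La and 469, 1516 and 667 CPM in Lb and 18271, 48182 and 25981 CPM in Ha and 3884, 1995 and 1327 CPM in Hb, and the difference was 6.68 (adjusted p = 0.0299). The number of lncRNA calls was 0 without Hb3, La1, La2, La3, Lb2 or Lb3, 25 without Ha3 and 8 without Hb2.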

How the data were processed

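Total RNA of 12 boar testes was measured, 3 libraries per breed and age. The authors filtered reads with fastp 0.18.0, removed ribosomal reads with Bowtie2 2.2.8, mapped to Sscrofa11.1 with HISAT2 2.1.0 and assembled with StringTie 1.3.4. The authors deposited an estimated count for each mRNA and lncRNA in each library, and the tool that made these counts is not stated. The deposited FPKM values are scaled by length and depth and were used for levels per length and for limma.

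Counts were rounded, and mRNAs and lncRNAs were analysed as separate tables. The 6 LC libraries were filtered with filterByExpr (minimum count 10), scaled with TMM, and compared in R 4.3.3 with edgeR 4.0.16 and its quasi-likelihood F test, with Benjamini-Hochberg adjustment over all tested genes. The interaction used the 12 libraries. The SE is the absolute log2 fold change over the square root of F, and is left out for groups at the floor. A fold against a group at 0 was computed against 3 counts in each library, and with 1 to 3 counts in a group the ratio has a 95% counting interval (exact Clopper-Pearson). Alternatives used DESeq2 1.42.0, limma 3.58.1, library totals, other filters, a replicate block, the 12 libraries in 1 fit, the mRNA scale for lncRNAs, and each library left out. Tables and figures were made with Python 3.11.15, numpy 2.4.6, pandas 2.3.3, scipy 1.17.1 and matplotlib 3.10.9.

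The members and the lists were chosen with earlier results of these data known. Named genes are the list members and, among called genes without overlap and with a symbol, the 5 mRNAs with the smallest adjusted p and the 5 with the largest CPM in each direction, 3 and 3 lncRNAs likewise. Named too are up to 5 mRNAs and 2 lncRNAs per direction of the interaction, with or without overlap, the lncRNAs of the study, and the 5 most abundant called genes per direction on the X chromosome. The X and Y genes, MSTRG.25122, MSTRG.12391.2 and the genes in the plot of single genes were chosen after their values were seen. Positions are those of the RefSeq annotation of Sscrofa11.1, and assembled transcripts have those of the deposited assembly. Some genes within these lists and counts are not reported here by name. Reads and promoter sequences were not analysed here.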

Additional observations from a re-analysis of the deposited data

Results flagged for a closer look

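A difference between the breeds in the change with age, tested as an interaction in the 12 libraries, was called for 63 of 430 named mRNAs and 1 of 23 named lncRNAs that were tested, beside 5.14% of all mRNAs and 0.0257% of all lncRNAs. Of the 64, 9 mRNAs and the lncRNA had been picked by this test itself. Values are log2 differences, (Lb over La) minus (Hb over Ha). Positive values mean that Lb over La was the larger.

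In stroma and matrix genes the difference was 4.02 for COL1A1, 2.83 for COL1A2, 3.19 for COL3A1, 7.73 for COL5A1, 1.96 for COL5A2, 1.81 for COL6A3, 2.77 for COL4A1 and 2.52 for COL4A2. It was also 1.07 for LAMA2, 1.75 for FN1, 2.01 for BGN, 1.36 for FBN1, 4.13 for ELN and 2.09 for PDGFRB, and it was -1.84 for COL18A1. Contractile genes of myoid cells had 2.54 for ACTA2, 2.12 for CNN1 and 3.37 for ACTG2. The remaining somatic lists had 1.92 for PECAM1, 1.94 for AIF1, 1.07 for SLA-DMB, 5.6 for CYP21A2, 1.13 for DMRT1, 2.07 for NR0B1, -1.9 for GDNF and 1.63 for DHCR7. Signalling genes had 2.09 for CRABP1, 2.74 for IGFBP6, 1.18 for IGFBP7, 1.51 for TGFB3, 1.44 for FZD2, -1.36 for FZD7 and 1.94 for SFRP4.

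Germ cell genes had 1.53 for DAZL, 1.3 for KIT, 1.26 for SOHLH1, 1.21 for SYCE2, 1.08 for SPATA22, 1.64 for PSMC3IP, 1.39 for PLD6 and 1.02 for NUTM1. Genes of later germ cells had -2.96 for ACRV1, -1.21 for CRISP2, -1.83 for PRM1, -1.45 for OAZ3, 2.22 for CATSPER3, -2.05 for TSSK2, -2.26 for SPATA3 and -1.54 for GSG1. Genes of cell division and energy metabolism had 4.38 for CCNA2, -1.22 for AURKB, -1.4 for HK1, 3.1 for HK2 and 1.04 for PGAM1. Among genes outside the lists the difference was 5.48 for SARDH, 4 for CBR1, 9.85 for HPD, -2.25 for EXOSC9, -2.21 for FAM46C, -2.73 for FHDC1, -1.63 for CXXC5, 1.83 for ARHGAP36 and 1.61 for SLC6A8, and for the lncRNA it was 6.68 for LOC106504562.

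The fitted values of HPD, COL5A1, ACRV1 and SPATA3 are not exact, since Hb for the first 2 and Ha for the last 2 had no library over 3 counts. With that group set to 3 counts per library the differences of log2 mean CPM were 7.87, 2.83, -1.55 and -1.51, and these are limits for the smallest size.

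The call was made in all settings tried for 33 of the 64, among them DAZL, SOHLH1, HK1, HK2, DMRT1, NR0B1 and DHCR7. It was lost in 14 for GDNF, 12 for CCNA2, 11 for SPATA22, PRM1 and OAZ3, 10 for KIT, CRISP2, LAMA2, SLA-DMB and GSG1, 9 for COL3A1 and SPATA3, 8 for COL1A2 and AIF1, 7 for SYCE2, PSMC3IP, ACRV1, CATSPER3, AURKB, PDGFRB and FZD2, 6 for NUTM1 and CYP21A2, 3 for PLD6 and PGAM1, 2 for TSSK2 and COL5A1 and 1 for TGFB3, FZD7 and SFRP4, of 19 settings, and in 7 of 20 for LOC106504562. In the settings that lost it, the difference was 3.87 to 4.62 for CCNA2, -2.00 to -0.57 for GDNF and -2.97 to -0.42 for ACRV1, and COL5A1 reversed its sign in 1.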

How the results depend on the processing

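Between LC testes of 120 and 30 days, the count of mRNAs called stayed within 1.5 times of 7926 in each alternative, with 7747 with DESeq2, 8199 with library totals, 5586 and 8251 with limma on log2(FPKM + 1) and log2(FPKM + 0.1), 8505 with no filter, 7942 with at least 10 counts in every library of a group and 8133 with the 12 libraries in 1 fit. Leaving out 1 library gave 7843 to 8126, and no mRNA was called in the opposite direction in any of these. For lncRNAs the count went from 1825 to 809 with limma on log2(FPKM + 1), and the cause was not tested. In the other alternatives it was between 1579 and 2077, and 1749 to 1925 with 1 library left out. Of 322 named genes called by age in LC, 259 were called in the same direction in all settings and 0 reversed.

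Interaction counts depended on the processing, and the cause was not tested. For mRNAs 890 became 1363 with DESeq2 and 1365 with limma on log2(FPKM + 0.1), and it ranged over 437 to 1242 with 1 library left out. For lncRNAs 1 became 124 with DESeq2, 2 with library totals, 164 and 122 with limma on log2(FPKM + 0.1) and log2(FPKM + 1), 3 on the scale of the mRNAs, 5 with no filter and 4 with the stricter filter, and it ranged over 0 to 25 with 1 library left out. COL5A1 reversed from an interaction of 7.73 to -0.55 with limma on log2(FPKM + 1), and the cause was not tested. The median interaction of all mRNAs was 0.17 with library totals, 0.18 and 0.09 with limma on log2(FPKM + 0.1) and log2(FPKM + 1), and -0.03 with DESeq2, against 0.02.

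A replicate block, which treats libraries of the same number as paired, gave 7770 mRNAs and 1579 lncRNAs by age in LC, and 672 mRNAs and 0 lncRNAs by interaction. The labels do not state a pairing, and across mRNAs the deviations of same-numbered La and Lb libraries correlated at -0.04, -0.00043 and 0.05. Depth limits genes near 0, since 3 counts per library are the floor. With 3 libraries against 3, an exact two-sided permutation test cannot go below p = 0.1, so that each p comes from the fit across all genes.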
